A study of Mus musculus with 6 samples.

Results

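The Bcl-2 family survival and death genes were examined in diabetic mouse kidney, with and without the receptor for the complement fragment C3a. 10 genes were chosen by symbol: Bcl2a1a, Bcl2a1b, Bcl2a1c, Bcl2a1d, Bcl2, Bcl2l1, Mcl1, Bax, Bbc3 and Bcl2l11. The choice was made because Bcl2a1c read lower on every C3aR-/- array than on any WT array, so the members' differences between the groups are given as a description, with no p-value. 19 probes of 56599 carried these names, 18 of them passed a filter on dim spots, and they represent 8 genes of 22741 tested. Bcl2a1a and Bcl2a1b had no probe of their own name and are read only through a probe that 3 of the Bcl2a1 genes share.

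RNA came from the renal cortex of male C57BL/6 mice and was hybridised to 6 1-colour Agilent arrays, 3 for C3aR-/- diabetic mice and 3 for WT diabetic mice. Mice of both groups were put on a high fat diet (60% of its energy as fat) at 8 weeks of age and, 4 weeks later, received streptozotocin, which kills beta cells of the pancreas, at 60 mg/kg on each of 3 days. The description of the samples places tissue collection 26 weeks after streptozotocin. The labels do not describe how the C3aR-/- line was made. They also do not say whether replicates of a group are separate animals, so a p-value here covers only the spread among these arrays, which may be technical.

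Levels are log2 processed signals relative to each array's 75th percentile, and differences are C3aR-/- minus WT. The arrays had 58.6% to 63.0% of probes well above background, no saturated probe, and pairwise correlations of 0.981 to 0.995. On the first principal component, with 43.1% of the variance, WT replicate 1 and C3aR-/- replicate 2 lay farthest apart, and some results are also given without these 2 end arrays. C3ar1, the targeted gene, read -4.10, -4.95 and -4.69 on C3aR-/- arrays, against -2.96, -3.86 and -3.62 on WT arrays. No C3aR-/- value reached a WT value, for a difference of -1.10 ± 0.30 (adjusted p = 0.931 in limma over all genes), and the probe was well above background on 2 of the 3 C3aR-/- arrays. The labels do not say whether the deletion covers this probe. All 8 proximal tubule markers passed the filter on dim spots, with a mean level of 5.77 to 6.37 on C3aR-/- arrays and 4.996 to 6.08 on WT arrays, while 3 of 5 adrenal markers were below background on all of them.

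The family decides whether a cell's mitochondria release cytochrome c, the step that commits a cell to apoptosis by the intrinsic route. Survival members (Bcl2, Bcl2l1, Mcl1 and the Bcl2a1 proteins) bind and hold back the pore formers Bax and Bak1, and the BH3-only members Bbc3 (PUMA) and Bcl2l11 (BIM) release that hold when a cell is damaged or deprived of growth signals. Bcl2a1c is grouped with the survival members by family, and whether this copy yields a working protein was not examined. In mice the Bcl2a1 genes (A1) are near-identical copies transcribed mainly in blood cells under NF-kB, whereas Bcl2l1, Mcl1 and Bax are widely expressed, kidney tubule included, and Bbc3 and Bax are targets of p53.

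The probes that carry the Bcl2a1 and Bax values are shown because near-identical copies limit which gene a probe reads. They are written 5' to 3' in lower case. The Bcl2a1c probe (A_52_P299771, chr9:114239422-114239481, mm9, plus strand) is annotated to the Bcl2a1c transcript alone. Whether it also binds transcripts of the other Bcl2a1 copies was not tested. The shared probe (A_55_P1978424, chr9:88618165-88618224, mm9, minus strand) carries transcripts of Bcl2a1d, Bcl2a1b and Bcl2a1a and is given by its first 30 bases. The Bax probe (A_51_P254541, chr7:52721469-52721624, mm9, minus strand) takes 60 bases from a stretch of 156 bases of genome.
Bcl2a1c: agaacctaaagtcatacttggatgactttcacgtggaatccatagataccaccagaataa
Bcl2a1a/b/d, first 30 bases: cacttggcatttccatttacaaacatgaaa
Bax: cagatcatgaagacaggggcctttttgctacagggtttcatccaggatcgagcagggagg

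The 4 Bcl2a1 promoters share 1 sequence feature that no other member has in its RefSeq windows (250 bases before to 50 after each annotated start, GRCm38.p6). The motif GAGGAAGT, a core of the kind bound by PU.1, a transcription factor of myeloid and B cells, was found on either strand in all 4 Bcl2a1 genes and in 3.20% of 32851 mouse promoter windows. These windows are shown because the 2 Bcl2a1 probes had the largest differences of the members. The genes are near-identical copies, so their shared letters are not 4 separate observations. Any part of PU.1 in the differences was not tested, and its gene Spi1 did not pass the filter on dim spots. The motif is in capitals below. It starts 104 bases upstream of the annotated start in Bcl2a1a and Bcl2a1d, 148 in Bcl2a1b and 214 in Bcl2a1c. The windows are chr9:88956786-88956853 (Bcl2a1a, plus strand), chr9:89199095-89199162 (Bcl2a1b, plus strand), chr9:114329891-114329958 (Bcl2a1c, plus strand) and chr9:88731917-88731984 (Bcl2a1d, minus strand).
Bcl2a1a: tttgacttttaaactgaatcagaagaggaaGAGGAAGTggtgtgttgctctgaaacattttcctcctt
Bcl2a1b: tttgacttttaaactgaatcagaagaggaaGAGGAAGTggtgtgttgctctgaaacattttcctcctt
Bcl2a1c: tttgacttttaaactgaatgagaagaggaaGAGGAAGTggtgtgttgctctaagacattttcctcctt
Bcl2a1d: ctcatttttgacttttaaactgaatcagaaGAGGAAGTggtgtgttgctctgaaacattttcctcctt

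Bcl2a1a and Bcl2a1b are identical over these 68 bases, and Bcl2a1c carries C20G, G52A and A54G relative to Bcl2a1b, counted from the 5' end of the window. Bcl2a1d lacks 6 bases just before the motif and has no substitution. Of other motifs searched on both strands, the TATA box TATAAA (13.6% of all windows) and an NF-kB consensus (0.411%) were in no member's window, and the FOXO form TGTTTAC (3.65%) was in those of Bbc3 and Bcl2l11. The motifs were chosen after the sequences had been read, and a match is a description of letters, not a measured binding site.

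Bcl2a1c is the Bcl2a1 copy with the shortest RefSeq locus (444 bases on chromosome 9, against 5497 to 8566 for the other copies). It read -3.33, -3.36 and -3.15 on C3aR-/- arrays, against -1.93, -2.54 and -2.04 on WT arrays. All 3 C3aR-/- values were below all 3 WT values, with a gap of 0.61 between the highest C3aR-/- and the lowest WT array. The means were -3.28 ± 0.11 in C3aR-/- and -2.17 ± 0.33 in WT cortex (SD, n = 3 each), a difference of -1.11 ± 0.18 (standard error), or 0.464 times the WT signal. The probe is dim: its processed signals were 63.8, 52.7 and 73.7 in C3aR-/- and 183, 115 and 148 in WT cortex, although all 6 were well above background. With another background correction (normexp) the difference was -0.57, with its direction kept, and it lay between -1.30 and -0.99 when single arrays were left out. Renal cortex is a mixture of cells, so fewer cells of a type and less RNA per cell cannot be told apart in this or any later value.

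The probe shared by Bcl2a1a, Bcl2a1b and Bcl2a1d read 0.79, 0.56 and 0.86 on C3aR-/- arrays, against 1.87, 1.25 and 1.94 on WT arrays. The groups again did not overlap, and WT replicate 2 was the lowest WT array, as it was for Bcl2a1c. The difference was -0.95 ± 0.21, or 0.517 times the WT signal, from means of 0.74 ± 0.16 in C3aR-/- and 1.69 ± 0.38 in WT cortex. This probe is not dim, with processed signals of 797 to 1184 in C3aR-/- and 1596 to 2540 in WT cortex, and with normexp correction its difference was -0.92. Over all settings tried it lay between -1.17 and -0.77. The signal of Bcl2a1c relative to the shared probe on the same array differed by -0.16 ± 0.084 between the groups, which overlapped. Here ± is the standard error from the spread of 3 arrays per group, not that of limma. With normexp correction, however, the shared probe's difference was the larger. Which of Bcl2a1a, Bcl2a1b and Bcl2a1d supplied the signal cannot be read from one probe.

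**Figure D1:**
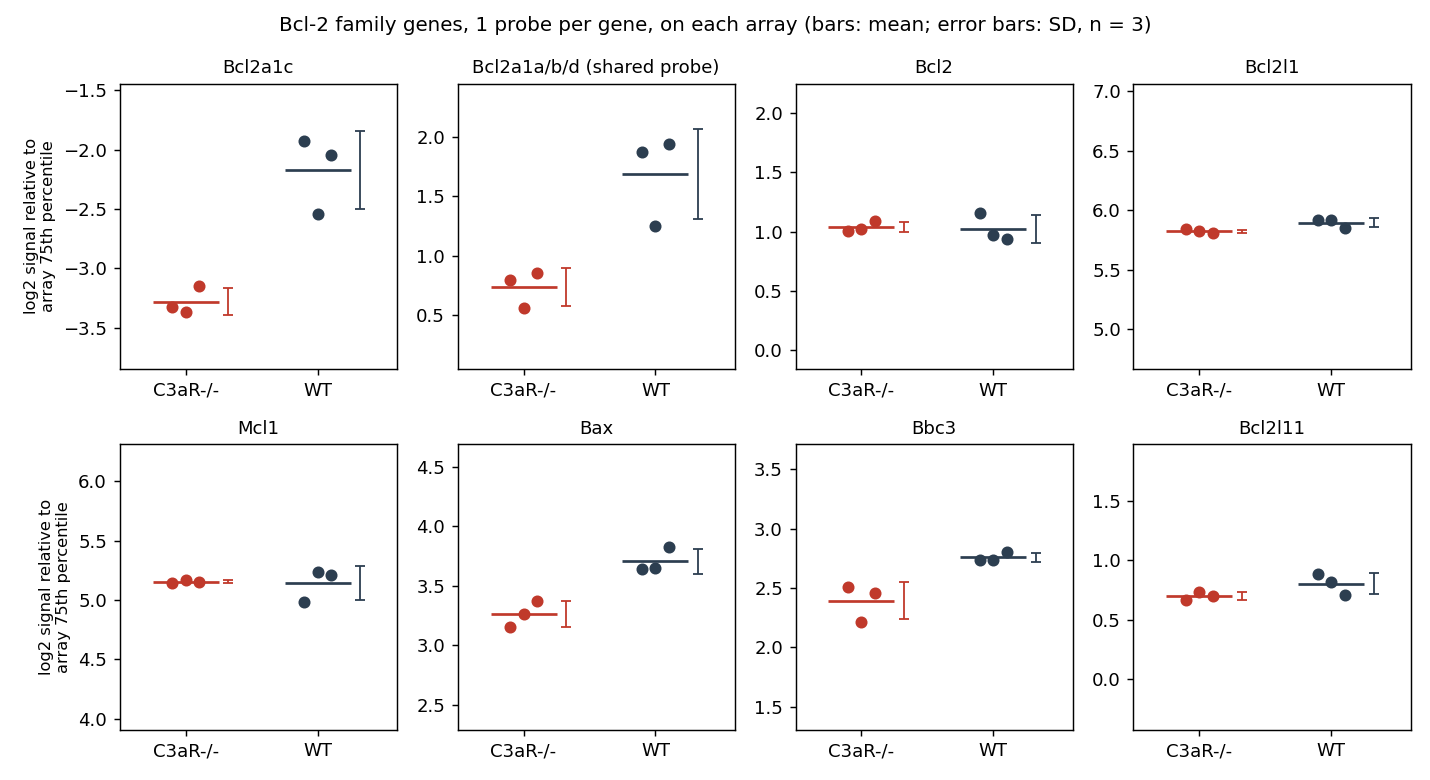
Level of each Bcl-2 family gene on each array, as log2 signal relative to the array's 75th percentile, with C3aR-/- points left of WT points in every panel, lines at the mean and bars of 1 SD (n = 3). All panels span the same number of log2 units; the points separate most for Bcl2a1c and the shared Bcl2a1 probe, less for Bax and Bbc3, and hardly for Bcl2, Bcl2l1 and Mcl1.

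The other survival members differed less. Bcl2, the founding survival protein, read 1.01, 1.02 and 1.08 on C3aR-/- arrays, against 1.15, 0.97 and 0.94 on WT arrays with its brightest probe, which left the groups overlapping and a difference of 0.020 ± 0.10, or 0.095 without the 2 end arrays. Its 2 other probes did not point the same way. A probe on another Bcl2 transcript (A_51_P380013) read -0.21, 0.0079 and -0.059 on C3aR-/- arrays, against 0.086, 0.029 and 0.14 on WT arrays, so that the groups were apart by 0.021 with a difference of -0.17 ± 0.11. The dimmest probe differed by 0.16 ± 0.19 and overlapped.

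Bcl2l1, which encodes the survival protein Bcl-xL and, by splicing, the death-promoting Bcl-xS, had 5 probes. The brightest read 5.84, 5.82 and 5.81 on C3aR-/- arrays, against 5.92, 5.92 and 5.85 on WT arrays. These values do not overlap, but the gap was 0.016 and the difference -0.073 ± 0.087, smaller than its standard error. The other 4 probes differed by -0.16 to 0.13 and overlapped, and the mean over all 5 differed by -0.027. Mcl1, a survival protein with a short half-life, read 5.15, 5.17 and 5.15 on C3aR-/- arrays, against 4.98, 5.24 and 5.21 on WT arrays. WT replicate 1 was the lowest array and the other WT arrays were the highest, so the groups overlapped. The difference of 0.012 ± 0.11 turned to -0.068 without WT replicate 1 and was also below 0 without both end arrays and with quantile normalization, the authors' table and the mean of probes. The second Mcl1 probe differed by -0.042 ± 0.13.

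Bax, which forms the pore in the outer mitochondrial membrane, read lower with both of its probes. The brighter probe read 3.15, 3.26 and 3.37 on C3aR-/- arrays, against 3.64, 3.65 and 3.83 on WT arrays. No C3aR-/- array reached the lowest WT array, and the difference was -0.44 ± 0.11, or 0.736 times the WT signal, from means of 3.26 ± 0.11 in C3aR-/- and 3.70 ± 0.10 in WT cortex. The other Bax probe, shown above, read 1.11, 1.28 and 1.39 on C3aR-/- arrays, against 1.78, 1.66 and 1.83 on WT arrays. It was also apart by 0.26, with a difference of -0.49 ± 0.12. Bax was also set against Bcl2, Mcl1 and Bcl2l1 on the same arrays. Its log2 signal relative to that of Bcl2 was different by -0.46 ± 0.12, relative to Mcl1 by -0.45 ± 0.097 and relative to Bcl2l1 by -0.37 ± 0.11, with no overlap of the groups in any of the 3 pairs. For pairs, ± is the standard error from the spread of 3 arrays per group, not that of limma. The 3 pairs share the same Bax values, and Bcl2, Mcl1 and Bcl2l1 differed by only 0.020, 0.012 and -0.073. They largely restate the Bax difference and are not 3 separate observations. How often such pairs separate over all genes was not counted.

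Bbc3, the p53-induced BH3-only protein PUMA, read 2.51, 2.21 and 2.46 on C3aR-/- arrays, against 2.73, 2.74 and 2.80 on WT arrays. The groups did not overlap and the WT arrays lay close together, with means of 2.39 ± 0.16 in C3aR-/- and 2.76 ± 0.039 in WT cortex. The difference was -0.36 ± 0.11, or 0.777 times the WT signal, and -0.27 without C3aR-/- replicate 2. Bcl2l11, whose protein BIM links loss of growth factor signals to Bax, read 0.66, 0.73 and 0.70 on C3aR-/- arrays, against 0.89, 0.82 and 0.71 on WT arrays with its brightest probe. The lowest WT array lay within the C3aR-/- values, and the difference was -0.11 ± 0.095. Its other 2 measured probes differed by -0.28 ± 0.21 and -0.058 ± 0.13 with overlap, and the last was well above background on only 1 array, a C3aR-/- one, and is given no difference.

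**Figure D2:**
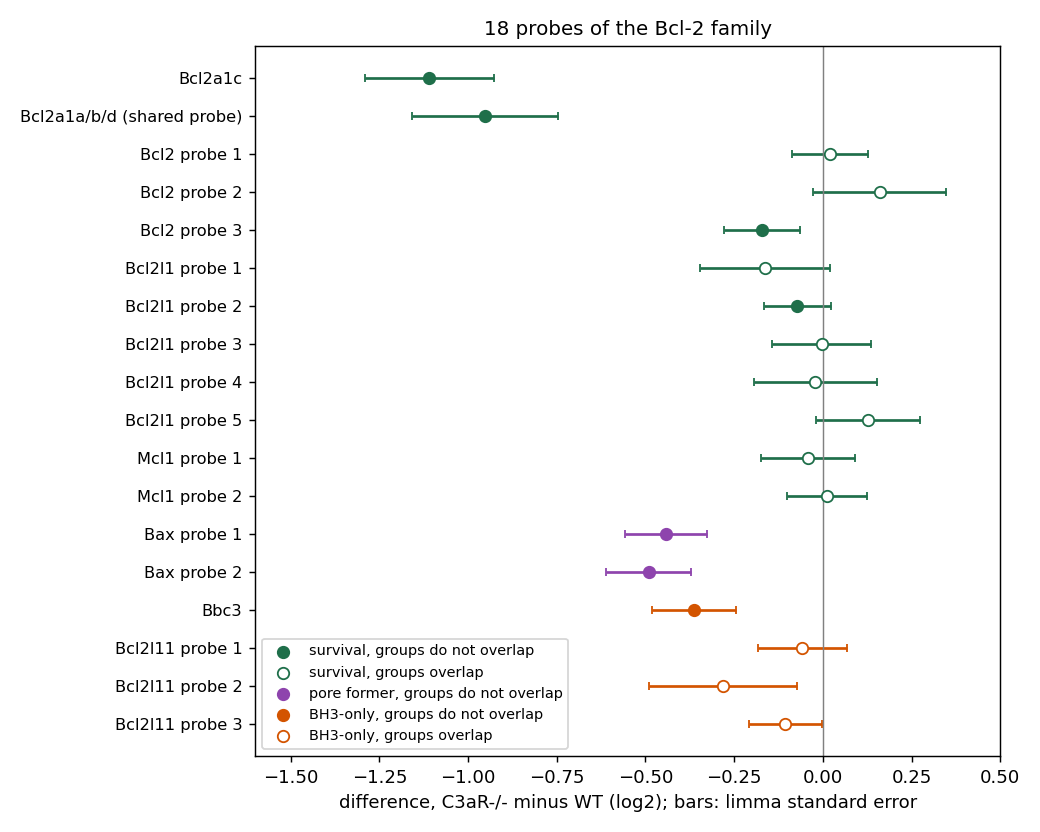
Difference of C3aR-/- minus WT (log2) for each of the 18 measured probes, with bars of 1 limma standard error, grouped as survival members, the pore former Bax and BH3-only members, and filled where the 3 C3aR-/- and 3 WT arrays do not overlap. Both Bcl2a1 probes lie near -1, both Bax probes and the Bbc3 probe between -0.5 and -0.3, and the probes of Bcl2, Bcl2l1 and Mcl1 on both sides of 0.

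Read together, 6 of the 8 tested members were lower in C3aR-/- cortex, and 5 of 8 had groups that did not overlap, against 9.84% of all genes (4.19% with the C3aR-/- arrays lower, as in these 5). These counts describe genes chosen for 1 of those differences and support nothing further. In limma no gene of the 22741, members included, passed the Benjamini-Hochberg adjustment (lowest adjusted p 0.858), and 1111 (4.89%) had an unadjusted p under 0.05. The median difference of the 8 was -0.23, against 0.026 over all genes, of which 43.4% were lower. By probe, 14 of the 18 were lower, where 43.9% of all probes were, and 7 had groups that did not overlap (9.57% of all probes). The 2 Bcl2a1 differences belong to the 0.985% of genes with a difference of -0.9 or less. Bcl2a1c was chosen for its fall, so its place there is a description only. Under other settings the differences came up to -0.57 for Bcl2a1c and -0.77 for the shared probe, which are above that cut.

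The arrays lay in 2 rows of 1 slide, with 2 arrays per group in row 1 and 1 per group in row 2. Within rows 1 and 2, the Bcl2a1c difference was -1.05 and -1.22, and that of the shared probe -0.92 and -1.01. Bax differed by -0.53 and -0.26, and Bbc3 by -0.41 and -0.27. Mcl1 (-0.066 and 0.17) and Bcl2 (0.064 and -0.069) changed sign between the rows.

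**Figure D3:**
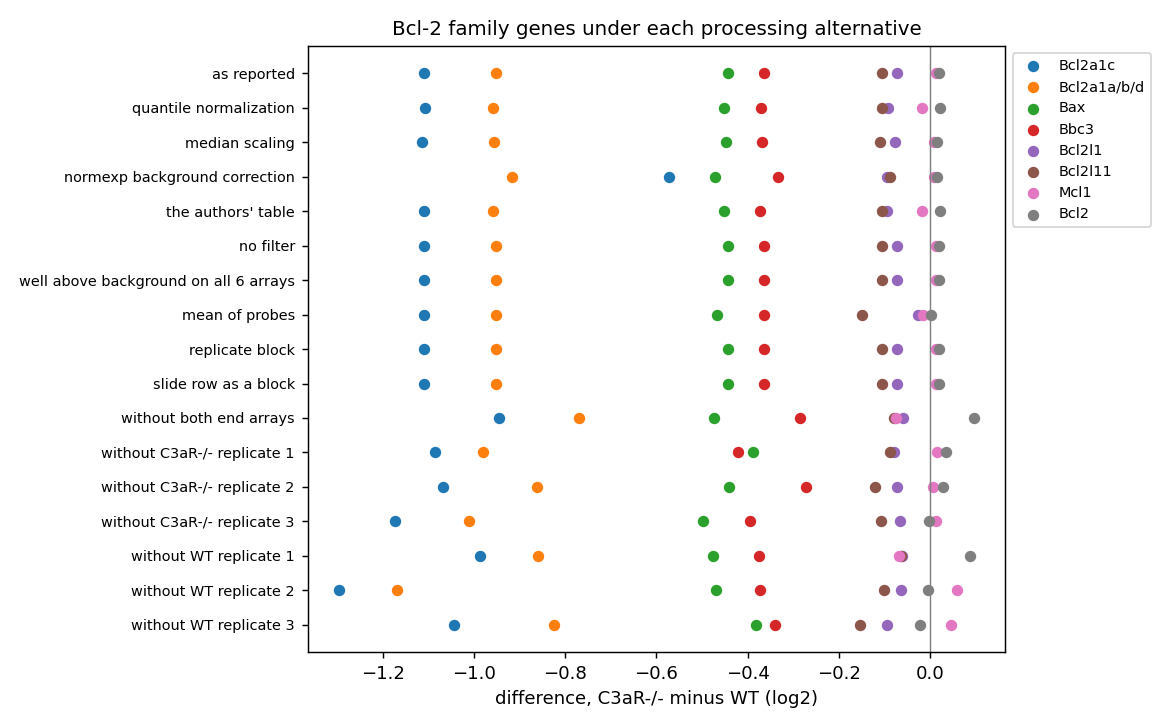
Difference of C3aR-/- minus WT (log2) for each of the 8 Bcl-2 family genes as reported (top) and under each of 16 alternatives of normalization, filter, probe choice, block and left-out arrays. Bcl2a1c, the shared Bcl2a1 probe, Bax and Bbc3 stay below 0 throughout, Bcl2a1c moves to -0.57 with normexp correction, and Mcl1 and Bcl2 cross 0.

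Because the Bcl2a1 genes are transcribed mainly in leukocytes, their values are given beside leukocyte markers on the same arrays. The T cell list (11 of 12 genes measured) was lower for 11 of 11 genes, with a median difference of -1.21 and a mean level of -2.23 to -1.55 on C3aR-/- arrays, against -1.11 to -0.52 on WT arrays. All 10 macrophage markers were lower, by a median of 0.57, with mean levels of 0.82 to 1.40 on C3aR-/- and 1.32 to 2.03 on WT arrays, which overlap. The pan-leukocyte list was lower for 8 of 9 genes (Ptprc differed by 0.088), by a median of 0.54, with levels of 0.023 to 0.50 on C3aR-/- and 0.58 to 0.99 on WT arrays.

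Smaller lists also had more genes lower than higher, not all with separate groups. Dendritic cell markers were lower for 4 of 5 genes, and B cell markers for 4 of 4 with Cd79a and Blk below background on all arrays. Neutrophil markers were lower for 4 of 5, with Cxcr2 below background on all arrays. The groups overlapped for each neutrophil gene and for the list mean (-0.53 to -0.25 on C3aR-/- and -0.39 to 0.23 on WT arrays). Of the 7 mast cell markers, Cpa3, Mcpt4 and Fcer1a were below background on every array. The other 4 were measured, 3 of them lower, with a median difference of -0.14 and list means that overlapped. The part these cells have in the Bcl2a1 values was not tested. The tubule lists ran the other way, with 0 of 8 proximal tubule genes lower (median difference 0.34), where 43.4% of all genes were. None of the 8 had an unadjusted p under 0.05 in limma. The proximal tubule mean levels overlapped between the groups, with WT replicate 1 the lowest array and C3aR-/- replicate 2 the highest. Thick ascending limb and distal tubule genes were lower for 1 of 6, and their list means overlapped. Collecting duct genes were lower for 0 of 6, and 1 had an unadjusted p under 0.05 in limma. Their list means did not overlap, at 1.92 to 2.03 on C3aR-/- and 1.78 to 1.89 on WT arrays. The part of tubule cells in the Bax and Bbc3 values was not tested either.

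**Figure D4:**
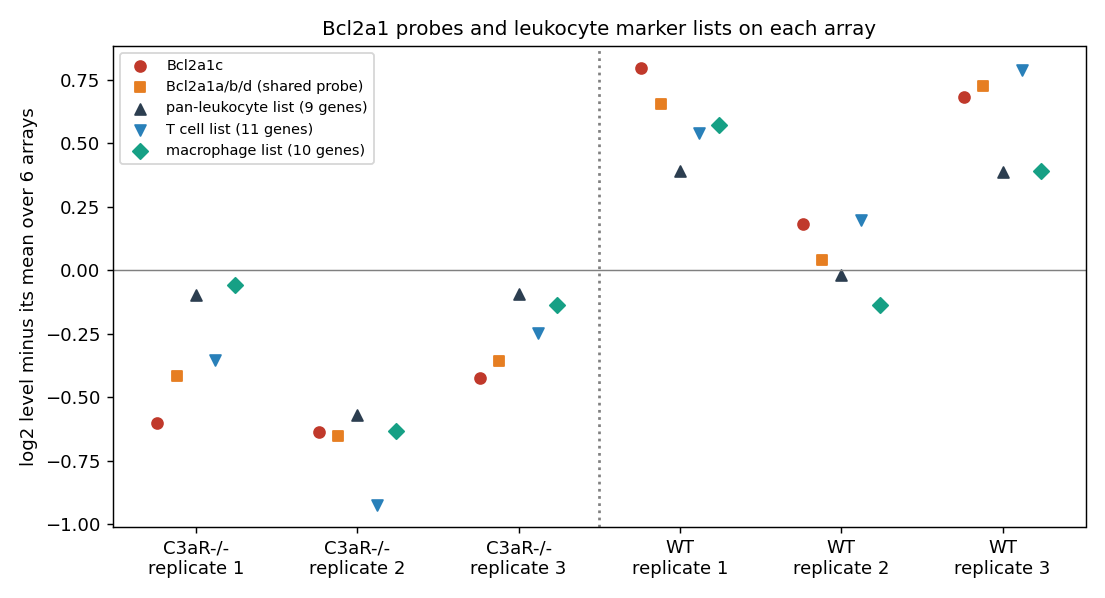
Level of Bcl2a1c, of the shared Bcl2a1 probe and of the mean of the pan-leukocyte, T cell and macrophage lists on each array, as log2 values minus their own mean over the 6 arrays, with C3aR-/- arrays left of WT arrays. WT replicate 2 is the lowest WT array for both probes and for the 3 lists, and C3aR-/- replicate 2 is the lowest array for all 5.

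The genes whose values over the 6 arrays were most like those of Bcl2a1c, among 18081 with a symbol outside the family, were Ephx1 (r = 0.994), Dusp2 (0.989), Gpr171 (0.988), Elk4 (0.986) and Ear1 (0.983). Their differences were -0.12 for Ephx1, an epoxide hydrolase, -0.72 for Dusp2, a phosphatase of MAP kinases, -1.12 for Gpr171, -0.12 for Elk4 and -0.71 for Ear1, an eosinophil-type ribonuclease. For the shared Bcl2a1 probe they were Trpv2 (0.996), Stat4 (0.994), Itgax (0.993), Lyz2 (0.993) and Dgka (0.990). Their differences were -0.40 for Trpv2, -0.67 for Stat4, -0.80 for Itgax, an integrin of dendritic cells and macrophages, -0.92 for Lyz2, the lysozyme of macrophages, and -0.15 for Dgka. These correlations rest on 6 points that share the group difference, and with so few points 5% of the genes searched exceeded r = 0.795 for Bcl2a1c and r = 0.807 for the shared probe.

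Around the members, 86 of 90 listed genes of the wider apoptosis pathway were measured. 51 of them (59.3%) were lower in C3aR-/- cortex, where 43.4% of all genes were. 5 (5.81%), all lower, had an unadjusted p under 0.05, where 4.89% of all genes did, 2.68% with C3aR-/- lower. None passed adjustment in limma. Their median difference was -0.034, against 0.026 over all genes, and 14 (16.3%) had groups that did not overlap, where 9.84% of all genes did. The count of 5 was 0 without WT replicate 1 or without WT replicate 3, 2 without C3aR-/- replicate 1 or 2, and 1 without WT replicate 1 and C3aR-/- replicate 2 together (the 2 end arrays).

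Among other Bcl-2 proteins, 11 of 17 were lower with a median of -0.029. Bak1, the second pore former, read 3.07, 2.83 and 3.14 on C3aR-/- arrays, against 3.49, 3.24 and 3.27 on WT arrays. Its groups did not overlap and the difference was -0.32 ± 0.13 (unadjusted p = 0.0453 in limma), but -0.15 without the 2 end arrays. Bnip3, a hypoxia-induced member of the mitochondrial outer membrane, differed by 0.34 ± 0.16 and Bok, a Bax-like protein, by -0.37 ± 0.33, both with overlap, and without the 2 end arrays these were 0.18 and -0.10.

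The apoptosome and caspases gave 6 of 17 lower with a median of 0.033, and none had an unadjusted p under 0.05. Apaf1, the scaffold that cytochrome c activates, differed by -0.26 ± 0.20, and by -0.0099 without the 2 end arrays and -0.11 with normexp correction. The 2 other Apaf1 probes differed by -0.87 and 0.030, and the mean of its probes by -0.37. Cycs, cytochrome c itself, differed by 0.13 ± 0.10, and Vdac2, a channel that holds Bak1, by 0.16 ± 0.090. Of the inhibitor of apoptosis proteins, 7 of 10 were lower with a median of -0.19 and none had an unadjusted p under 0.05. Xaf1, an interferon-induced antagonist of XIAP, differed by -0.61 ± 0.34 and Naip6, a neuronal apoptosis inhibitor copy, by -0.47 ± 0.23, and without the 2 end arrays these were -0.081 and -0.13. With normexp correction Naip6 differed by -0.16. Birc6 differed by 0.20 ± 0.10 and by 0.10 without the 2 end arrays, but 3 of its 4 other probes had the opposite sign and the mean of all its probes differed by -0.029.

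In the death receptor pathway, 10 of 13 genes were lower with a median of -0.11. Fasl, the ligand of Fas on cytotoxic lymphocytes, read -4.96, -4.47 and -4.90 on C3aR-/- arrays, against -3.71, -4.68 and -3.50 on WT arrays. WT replicate 2 lay among the C3aR-/- arrays, the difference was -0.81 ± 0.32 (unadjusted p = 0.0442 in limma), and with normexp correction it was -0.26. Mlkl, the executioner of necroptosis, differed by -0.70 ± 0.33 and the death receptor Tnfrsf10b by -0.32 ± 0.17, and without the 2 end arrays by -0.18 and -0.059. The mean of the Tnfrsf10b probes differed by -0.17.

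Of the regulators of Bcl-2 genes, 12 of 19 were lower with a median of -0.068, and 3 (15.8%, against 4.89% of all genes) had an unadjusted p under 0.05. Trp53, which encodes p53, read -0.12, 0.37 and 0.44 on C3aR-/- arrays, against 0.79, 0.63 and 0.77 on WT arrays. The groups did not overlap and C3aR-/- replicate 1 stood lowest, with a difference of -0.50 ± 0.17 (unadjusted p = 0.0229 in limma), or -0.33 without that array. Mdm2 and Cdkn1a, also of this list and added after their values had been seen, differed by 0.0076 ± 0.14 and -0.055 ± 0.17, both with overlap. The 2 other Cdkn1a probes differed by -0.22 and 0.081, and the other Mdm2 probe by -0.027. Any part of Trp53 in the Bax and Bbc3 values was not tested. Nfkb2 and Rel, subunits of NF-kB, differed by -0.47 ± 0.18 and -0.39 ± 0.16 (unadjusted p = 0.0400 and 0.0471 in limma). Rel was separated between the groups by only 0.00039, and without the 2 end arrays Nfkb2 differed by -0.22 and Rel by -0.20.

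Genes that act on the stability of Mcl1 and Bim had 5 of 10 lower and a median of 7.5e-05. Trib1, a pseudokinase that recruits a ubiquitin ligase, differed by -0.31 ± 0.16, Usp9x, the deubiquitinase of Mcl1, by 0.13 ± 0.11, and Trib3 by -0.28 ± 0.20. Without the 2 end arrays these were -0.13, 0.070 and 0.050, and the mean of the Trib1 probes differed by -0.17.

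**Figure D5:**
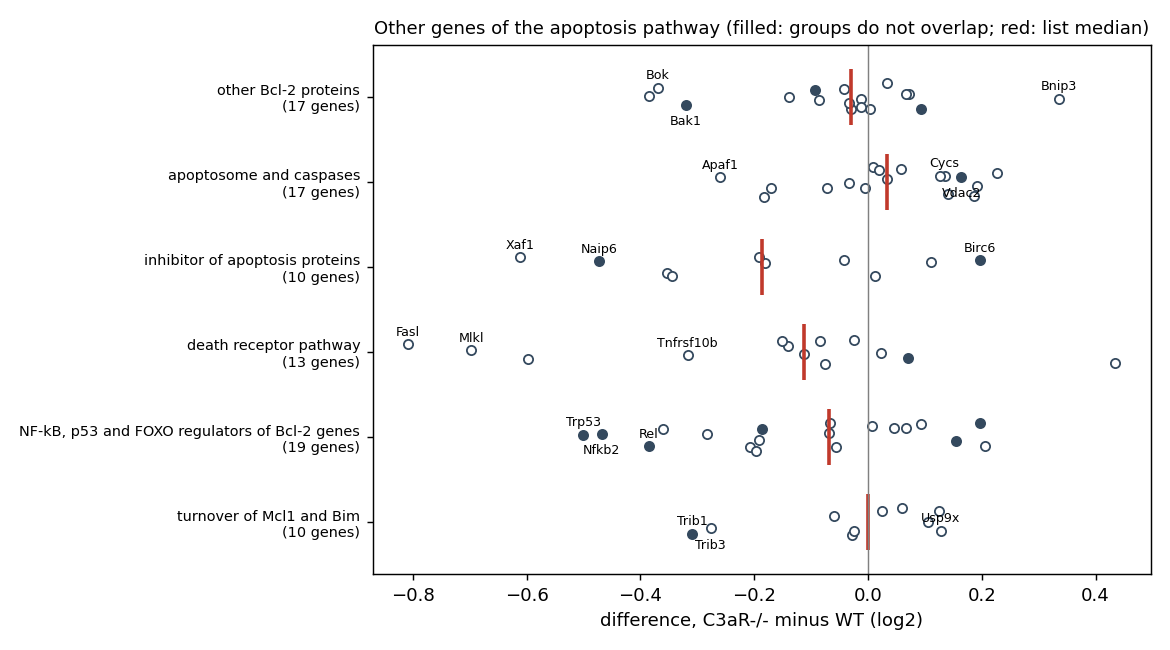
Difference of C3aR-/- minus WT (log2) for each of 86 genes of 6 apoptosis lists, with 1 point per gene, filled where the 3 C3aR-/- and 3 WT arrays do not overlap, and a red line at each list's median. The medians lie between -0.19 (inhibitor of apoptosis proteins) and 0.033 (apoptosome and caspases), and the labelled genes are those with the 3 smallest unadjusted p-values in each list.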

How the data were processed

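Members, gene lists and tests were chosen with earlier results of these data known. From the deposited scanner files came 1 processed intensity per spot, plus raw spot and local background intensity values. The processed intensity was made with Agilent Feature Extraction 10.7.1.1 by background subtraction and spatial detrending on a grid built on mm9, per the file headers. The submitters' processing notes name the same tool. The authors' deposited table holds log2 values whose columns share 1 distribution (median 5.73); no source used here gives the steps behind it. Groups came from the sample titles. Control spots and 6 probes flagged as outliers were left out. Processed signals were taken to log2, each array's 75th percentile was subtracted, and probes well above background on at least 3 of 6 arrays were kept. Each gene was represented by its brightest probe. 32992 probes were named through RefSeq accessions and 23607 by the files. limma 3.58.1 (R 4.3.3) tested C3aR-/- against WT over all 22741 genes and, separately, over all 34778 probes, with Benjamini-Hochberg adjustment, after a test on simulated data. Their number, 3 per group, limits the precision. Alternatives were quantile and median scaling, normexp (offset 50), the authors' table, other filters, the mean of probes, blocks for replicate number and slide row, and left-out arrays. Slide and scan were shared by all 6 arrays and could not be blocks. Named genes were all members, C3ar1, the 3 smallest unadjusted p-values per apoptosis list, and the 5 genes most correlated with each Bcl2a1 probe. Mdm2 and Cdkn1a were added outside these rules, after their values had been seen. Sequences come from the arrays' annotation and RefSeq. The exon or UTR each probe lies in was not analysed here.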

Additional observations from a re-analysis of the deposited data

How the results depend on the processing

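No gene passed adjustment as reported or under any of the 16 alternatives run, and the number of genes with an unadjusted p under 0.05, 1111 as reported, was 1742 with slide row as a block, 2025 without both end arrays and 767 to 1523 with single arrays left out. Between 6 and 7 of the 8 family genes were lower in C3aR-/- cortex under every alternative, with a median of -0.26 to -0.18 (single arrays left out, -0.25 to -0.20). Both Bcl2a1 probes were lower under all 15 alternatives that give probe values. Of the other apoptosis genes, 51 were lower as reported, 36 to 59 with single arrays left out and 41 to 53 otherwise. Those with an unadjusted p under 0.05, 5 as reported, numbered 1 without a filter, 8 with the mean of probes, 10 with slide row as a block, 1 without both end arrays and 0 to 6 with single arrays left out; the cause was not tested. The labels do not say whether the replicate numbers pair the samples. Correlations of deviations were 0.13, 0.41 and -0.093 for numbers 1, 2 and 3. They cannot settle this, because arrays of different number were not compared. With a replicate block 1596 genes and 7 of the other apoptosis genes had an unadjusted p under 0.05, 6 family genes were lower, and 0 genes passed adjustment. The dim Bcl2a1c, Fasl, Gpr171, Ear1 and Stat4 probes are limited by signal over background.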
